A study of Mus musculus with 96 samples.

Results

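Pancreatic islets were compared with liver in the mice of a diet study that ate chow. The libraries were chosen by their labels, all islet and all liver libraries of mice on the chow diet (CD), and were paired by the number of the mouse, which gave 48 of the 96 libraries and 24 of the 48 mice. The study put male C57BL/6N mice, bought at 4 weeks of age, on CD (LabDiet 5001, 13.5% fat) or on a high-fat diet (HFD; Research Diets D12492, 60% fat), and took islets and liver from the same animals after 4, 8, 12, 16, 20 or 24 weeks, with 4 mice a diet each time. Islets were freed from the pancreas with collagenase P, separated on a density gradient and picked by hand, while liver came from a fixed region and was frozen whole. The CD mice shared strain, sex and food, and the labels name no transgene and no drug. Older mice had also been on CD for longer, so that age and weeks on diet cannot be told apart.

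Islets are small clusters of endocrine cells in the pancreas, in which beta cells make insulin, alpha cells glucagon, delta cells somatostatin and other cells pancreatic polypeptide. Liver consists mostly of hepatocytes, which receive these hormones through the portal vein, store and release glucose, and make plasma proteins, lipoproteins, bile acids and urea. Both tissues descend from foregut endoderm, respond to glucose, and share several transcription factors.

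Levels are FPKM, fragment counts set to the length of the transcript and the size of the library, as the authors deposited them. A range is given from the lowest to the highest of the 24 libraries of a tissue, with the median in parentheses. A difference is the islet minus the liver value of log2(FPKM + 1), given with its standard error over the 24 mice, and this scale understates the difference of genes with low values. A gene was called when limma, with the mouse as a block, gave an adjusted p (Benjamini-Hochberg) under 0.05 and a difference of at least 1 in size. Each library is bulk tissue, in which fewer cells of a type and less RNA per cell cannot be told apart.

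The defining markers put every library in the tissue on its label. The summed level of 10 beta cell markers was 576919 to 853196 FPKM in islets against 73.2 to 3775 FPKM in liver, and that of 10 hepatocyte markers was 44817 to 77116 FPKM in liver against 27.3 to 53.8 FPKM in islets. Ins2 was the most abundant beta cell marker and Alb, for albumin, the most abundant hepatocyte marker. Neither sum overlapped between the tissues, so no islet library was exchanged with a liver library. Exchanges between mice within a tissue were not tested by these markers. Traces of each tissue's main transcripts in the other, and markers of pancreatic acinar cells in islets, are described with their values further on.

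The 2 transcriptomes were built very differently. An islet library spent most of its RNA signal on a few hormone genes, whereas the signal in liver was spread over many genes of plasma proteins and metabolism. The most abundant gene took 37.98 to 51.0% (47.0%) of the summed FPKM of an islet library and 2.90 to 7.90% (5.40%) of that of a liver library. The 20 most abundant genes took 70.1 to 79.3% (74.3%) in islets and 27.7 to 40.1% (32.9%) in liver, and the 100 most abundant 74.5 to 83.0% (79.3%) and 51.8 to 60.1% (55.6%). No islet library overlapped a liver library in any of these shares. Together Ins1 and Ins2 made up 53.7 to 70.8% (65.2%) of the summed FPKM of islets. These 2 insulin genes are closely similar in sequence, as are the members of the Mup, Serpina1, amylase and globin families, and how their reads were divided is uncertain.

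Despite that concentration, more genes were detected in islets. At 1 FPKM or more, an islet library held 11165 to 11941 genes (11683) and a liver library 9347 to 10066 (9882.5). At 100 FPKM or more the order turned, with 338 to 433 genes (387) in islets and 652 to 778 (725) in liver. The summed FPKM was 892097 to 1164367 in islets and 582982 to 672369 in liver. Each of these measures differed in the same direction in 24 of 24 mice (paired permutation test, two-sided, p = 1e-05, the smallest that 100000 resamples can give).

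Of 20155 genes with values, 11787 reached 1 FPKM in at least 24 of the 48 libraries and were tested. The tissues differed at most of them: 6434 were called (54.6), of which 4612 (39.1) were higher in islets and 1822 (15.5) in liver, where the numbers in parentheses are percent of the genes tested. By adjusted p alone 11149 genes (94.6) differed, so that the size of a difference says more than its p. For 7054 genes (59.8) the 24 islet and 24 liver values did not overlap at all, with islets above liver for 5097 (43.2) and liver above islets for 1957 (16.6). Of the called genes, 4550 were higher in islets in all 24 mice and 1783 higher in liver in all 24 mice. Liver had fewer called genes but larger differences, since a difference of at least 5 on the log2 scale was reached by 194 genes higher in islets and 381 higher in liver.

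Because FPKM are relative to the whole library, the balance between the directions depends on scaling. The median difference of all tested genes was 0.66 as deposited, 0.27 after median ratio scaling, 0.17 after quantile normalization and 1.25 when libraries were set to a common total without the 20 most abundant genes of either tissue. Genes higher in islets were 71.7% of the called genes as deposited, 57.9% after median ratio scaling (3300 against 2399 genes), 56.9% after quantile normalization (3046 against 2308) and 84.0% without the most abundant genes (6832 against 1303). In the same direction under all 4 scalings, 2587 genes were called higher in islets and 1285 higher in liver, and 0 were called in opposite directions. Differences below are therefore to be read against the median of 0.66, and genes near 0 often change sign between scalings, as the values given below for genes not called show. Counts of called genes in a list are likewise to be read against 39.1% of all genes tested higher in islets and 15.5% in liver.

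The islet hormone genes set the tissues apart most. All 10 genes of the list were higher in islets, with a median difference of 11.21, and every islet library lay above every liver library for each of them. Ins2, which encodes insulin and is present in mice beside its copy Ins1, was at 394273 to 594077 (459105) in islets and 0 to 2467 (21.6) in liver. That was a difference of 14.74 ± 0.67 (adjusted p = 6.7e-17, 24 of 24 mice), the largest of any gene as deposited, while after quantile normalization that of Alb was larger in size (-16.61 against 13.94). Ins1 was at 154648 to 232639 (178930.0) in islets and 0 to 1074 (7.75) in liver. Iapp, for the amylin that beta cells release with insulin, was at 22599 to 32456 (26469) in islets and 0 to 153 (1.14) in liver. Beta cell hormones thus filled islet libraries and were present in liver libraries only in traces, which were uneven between livers.

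The hormones of the other islet cells followed among the hormone genes. Acinar genes also stood among the 10 largest differences on the islet side. These were Amy2a5 at 12.83, before Gcg, and Ctrb1 at 11.42, before Sst and Ppy. Gcg, the glucagon precursor of alpha cells, was at 6678 to 15018 (11817) in islets and 0 to 28.7 (0.54) in liver. Somatostatin of delta cells, Sst, was at 2113 to 4753 (3566) in islets and 0 to 8.89 (0.08) in liver, and pancreatic polypeptide, Ppy, at 1578 to 6034 (2802) in islets and 0 to 13.3 (0.095) in liver. Their differences were 12.56 ± 0.24, 11.31 ± 0.17 and 11.10 ± 0.18. With liver medians under 1 FPKM, these differences mainly follow the level in islets. Pyy, a related peptide hormone, had 1166 to 2340.2 (1634) in islets and 0 to 6.03 (0) in liver, and Ucn3, the urocortin of mature beta cells, 272 to 437 (328) in islets and 0 to 2.33 (0.03) in liver. Npy and Ghrl were the lowest of the hormone genes in islets, with 3.53 to 25.1 (9.75) and 2.41 to 13.4 (4.88), and liver values were at most 0.07 and 0.24.

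Hormones are cut from larger precursors and packed into granules, and the genes of both steps were islet genes without exception. The prohormone processing list had 11 of 11 tested genes higher in islets, with a median difference of 8.68. Pcsk2, a convertase that cuts proinsulin and proglucagon, was at 582 to 1046 (812) in islets and 0 to 5.06 (0.03) in liver, and Pcsk1, its partner, at 105.1 to 194 (149) in islets and 0 to 0.63 (0.01) in liver. Cpe, the carboxypeptidase that trims the cut ends, was at 1275 to 1852 (1613) in islets and 0.02 to 7.60 (0.235) in liver. Chga and Scg2, granins of the granule core, reached 4689 to 8268 (5905) and 2233 to 3684 (2781) in islets, with differences of 11.76 ± 0.27 and 10.81 ± 0.22. Only Pam, the enzyme that amidates peptide ends, had more than traces in every liver library, at 1.61 to 6.59 (3.83) against 102.5 to 173 (137) in islets. Its ranges still did not overlap.

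All 17 genes for granules and exocytosis were higher in islets too, by a median of 5.69. Slc30a8, the zinc transporter that loads insulin granules, was at 298 to 577 (464) in islets and 0.02 to 1.71 (0.07) in liver. The granule membrane proteins Ptprn and Ptprn2 reached 97.0 to 242 (164) and 199 to 297 (242) in islets, and the calcium sensor Syt7 38.0 to 66.9 (56.4). For the membrane fusion protein Snap25 the values were 25.7 to 70.3 (57.2) in islets and 0 to 0.3 (0) in liver. Vamp2, which pairs with Snap25 on the vesicle side, showed the highest liver level of the list, 7.99 to 13.6 (10.1) against 83.1 to 127 (100.5), a difference of 3.19 ± 0.04. No gene of the list overlapped between the tissues.

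Glucose closes the ATP-sensitive potassium channel of the beta cell, and calcium then enters through voltage-gated channels. Each of the 10 channel genes was higher in islets, by a median of 3.56. Abcc8 and Kcnj11, the subunits of the ATP-sensitive channel, were at 199 to 346 (266) in islets and 0 to 1.36 (0.02) in liver and at 44.6 to 69.9 (58.5) in islets and 0 to 0.24 (0.01) in liver, respectively. The calcium channel gene Cacna1d was at 9.18 to 23.5 (19.2) in islets and 0.24 to 0.85 (0.55) in liver, and the potassium channel Kcnk16 at 110.3 to 213.6 (159) in islets. In liver these channels were near or at 0, apart from Kcnh6 at 1.03 to 2.03 (1.70) against 15.8 to 38.9 (31.2). None overlapped.

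**Figure D1:**
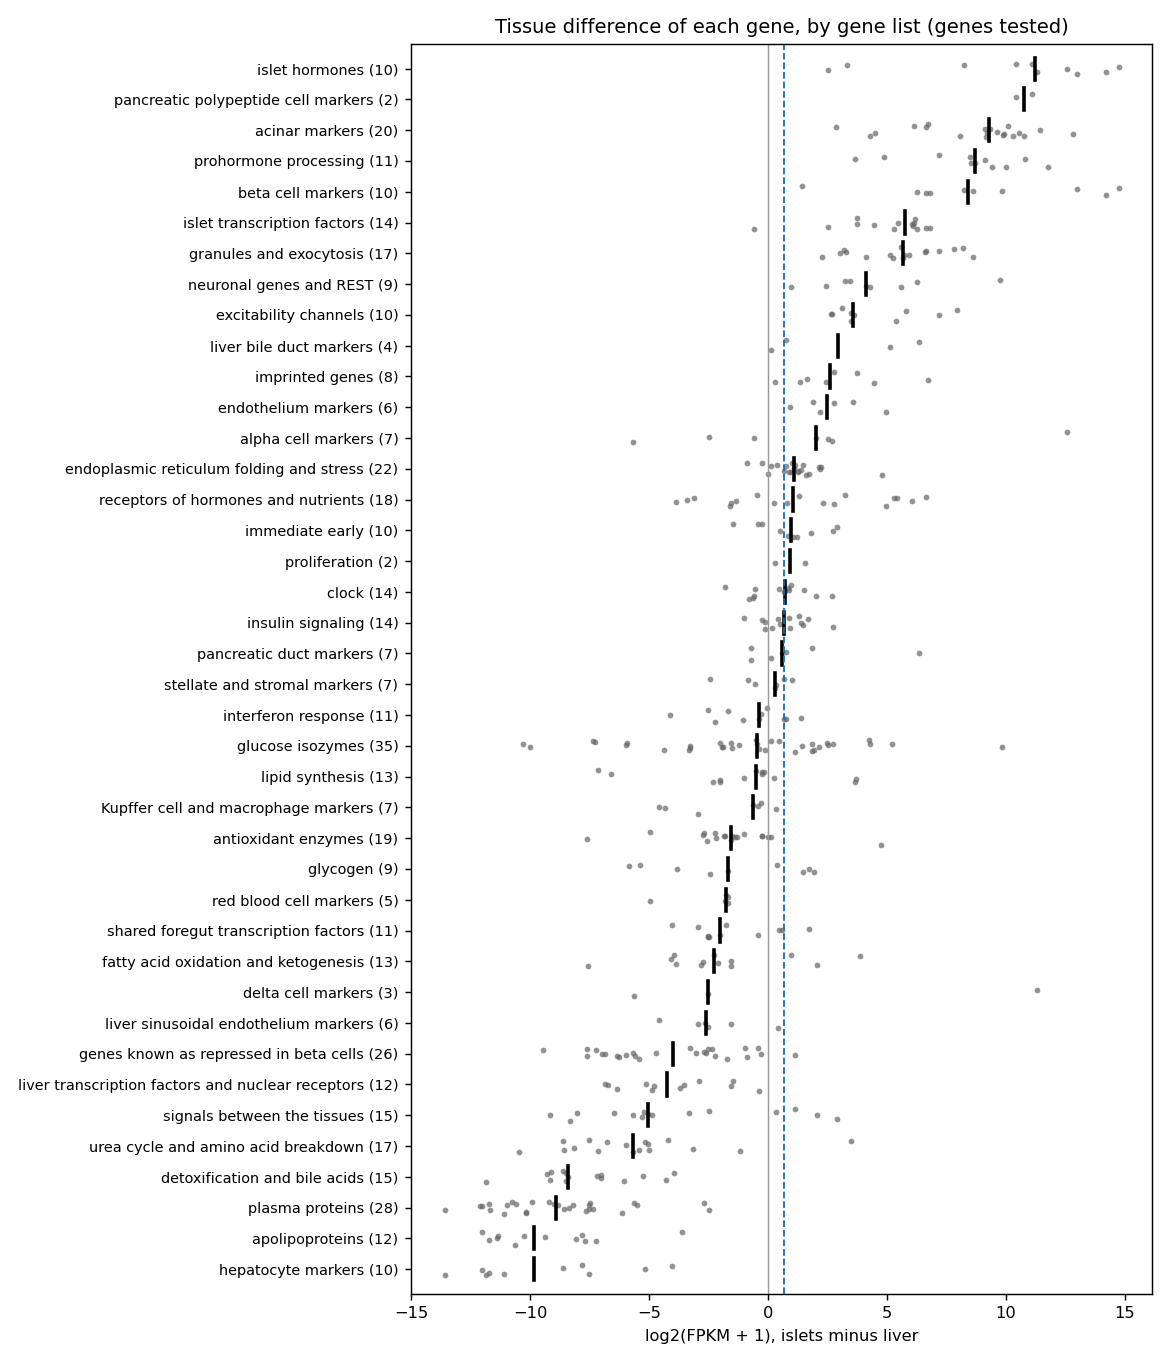
Difference between islets and liver, islets minus liver in log2(FPKM + 1), for every tested gene of the gene lists, with the median of each list marked and the median of all 11787 genes, 0.66, as a line. Hormones, processing and granule genes lie to the islet side, plasma proteins and apolipoproteins to the liver side, and glucose isozymes on both.

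Transcription factors divided the tissues in a graded way. Of 14 islet transcription factors 13 were higher in islets (median difference 5.75). Pdx1, which switches on the insulin genes, was at 49.9 to 110.5 (76.3) in islets and 0 to 0.27 (0) in liver. Nkx6-1, a guardian of the beta cell state, was at 74.2 to 236 (136) in islets and 0.1 to 0.79 (0.17) in liver, and Mafa, an activator of insulin in mature beta cells, at 46.2 to 221 (110.5) in islets and 0 to 0.33 (0) in liver. These factors do not share a range with liver in any library.

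In contrast, factors of the hepatocyte program lay mostly on the liver side. Of 12 liver transcription factors and nuclear receptors 11 were higher in liver (median difference -4.26). Cebpa, a central factor of hepatocytes, was at 0.8 to 2.43 (1.41) in islets and 137 to 297 (197) in liver. Nr1i3, the receptor that senses foreign compounds (CAR), was at 0 to 0.28 (0.09) in islets and 70.8 to 246 (108.1) in liver, and Ppara, the fatty acid receptor that turns on fat burning, at 0.17 to 0.37 (0.235) in islets and 27.7 to 62.3 (45.3) in liver. Nr1h4, the bile acid receptor, kept a low level in islets, 3.88 to 7.51 (5.32) against 50.05 to 96.9 (71.5) in liver. Prox1, which is active in both organs during development, was not called, at 6.24 to 15.2 (11.8) in islets and 9.54 to 24.4 (15.5) in liver. Its difference of -0.39 turned to 0.27 without the most abundant genes.

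Between these programs stood 11 tested factors that both organs inherit from the foregut, of which 7 were higher in liver, 1 in islets and 3 were not called. Foxa2, which opens chromatin in endoderm, was the islet gene, at 34.2 to 57.2 (43.2) in islets and 7.92 to 21.3 (12.1) in liver. Its relatives took the other side: Foxa1 was at 0 to 0.06 (0.02) in islets and 3.07 to 8.4 (4.99) in liver, and Foxa3 at 3.15 to 6.02 (4.30) in islets and 14.6 to 28.4 (22.0) in liver. Hnf4a, mutated in an inherited form of diabetes, was present in every islet library but lower, 6.29 to 9.18 (7.71) in islets and 98.6 to 197 (138) in liver, a difference of -4.02 ± 0.05 (adjusted p = 1.3e-32, 24 of 24 mice). Gata6 was not called and changed sign under quantile normalization, from 0.45 to -0.41.

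Islet cells share many genes with neurons, among them genes that the repressor REST silences in other tissues. Of 9 tested neuronal genes 8 were higher in islets (median difference 4.11). Resp18, a protein of endocrine granules, was at 827 to 1401 (1072) in islets and 0 to 6.93 (0) in liver. Gad1, which makes the transmitter GABA, was at 27.4 to 78.1 (47.0) in islets and 0 to 0.26 (0.01) in liver, and the RNA-binding protein gene Celf3 at 45.9 to 103.7 (81.7) in islets and 0 to 0.28 (0.015) in liver. Rest itself was below the filter in both tissues, at 0.08 to 0.45 (0.23) in islets and 0.25 to 1.20 (0.69) in liver, with a higher level in liver in 24 of 24 mice, and was not tested. Srrm4, a splicing factor of neurons, was the gene not called, at 1.47 to 2.94 (2.19) in islets and 0.15 to 2.31 (0.57) in liver, and its difference of 0.94 passed 1 with a pseudocount of 0.1 (1.68) and without the most abundant genes (1.32).

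Imprinted genes, which are read from 1 parental copy, also leaned to islets. Of 8 tested, 7 were higher in islets (median difference 2.60) and Cdkn1c was not called. Peg3 was at 66.1 to 303.9 (235) in islets and 0.22 to 2.01 (0.83) in liver, and Ndn at 21.8 to 35.6 (30.6) in islets and 0.07 to 0.77 (0.365) in liver, without overlap. Gnas, for the stimulatory G protein subunit behind glucagon and incretin signaling, was high in both, 631 to 832 (701) in islets and 242 to 347 (281) in liver, and its difference fell under 1 after median ratio scaling (0.86). Cdkn1c, a brake on the cell cycle, had 0.79 to 2.17 (1.32) in islets and 0.66 to 1.65 (0.9) in liver, and quantile normalization turned its difference from 0.29 to -0.53.

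The secreted proteins of blood formed the longest of the liver gene lists. All 28 plasma protein genes were higher in liver, by a median of -8.91, and none overlapped. Alb was at 0.2 to 13.3 (0.58) in islets and 18896 to 46057 (32851) in liver, a difference of -13.60 ± 0.21 (adjusted p = 3.1e-28, 24 of 24 mice), the largest on the liver side. The fibrinogen chain gene Fgb was at 0 to 0.92 (0.125) in islets and 1295 to 5411 (2481) in liver, and the carrier of free hemoglobin, Hp, at 0 to 1.34 (0.145) in islets and 1672 to 11576 (4089.7) in liver. Within liver, Hp varied between and within weeks, with 2198 to 9693 FPKM at week 4, 1672 to 2700 at week 8 and 9097 to 11576 at week 24. Antithrombin, Serpinc1, was steadier, at 1039 to 1545 (1296) in liver against 0 to 0.47 (0.07) in islets.

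A few plasma protein genes were also islet genes. Ttr, for transthyretin, a carrier of thyroid hormone that alpha cells make as well, was at 536 to 1049.5 (832) in islets and 2707 to 7073 (4661) in liver, a difference of only -2.49 ± 0.05 that shrank to -0.63 after quantile normalization. Rbp4, for the retinol carrier, was at 52.6 to 87.3 (70.1) in islets and 2700.3 to 4583 (3509.7) in liver, and C8b, for a complement component, at 14.2 to 26.9 (21.4) in islets and 73.2 to 184 (155) in liver. Liver was above islets in 24 of 24 mice for each. Ttr was among the 10 genes with the highest lower mean of the 2 tissues, beside genes of the translation machinery.

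Lipoprotein genes were as one-sided as plasma proteins, with 12 of 12 tested higher in liver (median difference -9.83). Apoa2 of high-density lipoprotein was at 2.17 to 8.64 (3.53) in islets and 8743 to 18858 (13647) in liver, and Apob, the scaffold of very-low-density lipoprotein, at 0.02 to 0.49 (0.04) in islets and 76.7 to 428 (267) in liver. Apoe, which guides remnants to their receptors, was the exception in level, with 58.1 to 134 (88.3) in islets and 9630.3 to 20259 (13006) in liver. The loading protein Mttp was at 3.92 to 6.84 (5) in islets and 57.5 to 106.6 (71.3) in liver. Again, no range overlapped. The major urinary proteins, pheromone carriers that male mouse liver makes in bulk, came next to Alb in difference, with 6 of the 10 largest liver differences. Mup7 was at 0 to 3.11 (0.03) in islets and 4610 to 39099 (13530) in liver, a wide spread among livers of the same strain. A gene listed as Gm21320, whose RefSeq synonym is Mup22, was at 0 to 8.42 (0) in islets and 9612 to 29029 (16749) in liver. The other genes among the 10 largest liver differences were Mup3, Mup14, Mup19 and Mup20, the alpha-1 antitrypsin copies Serpina1c and Serpina1e, and Ahsg at 4479.9 to 7365 (5348) in liver.

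Nitrogen disposal belonged to liver. Of 17 tested genes of the urea cycle and amino acid breakdown, 16 were higher in liver and 1 in islets (median difference -5.69). Cps1, the entry enzyme of the urea cycle, was at 0 to 0.25 (0) in islets and 188 to 589.8 (413.6) in liver, and Otc, the next step, at 0 to 0.1 (0) in islets and 81.1 to 239 (147) in liver. Tdo2, which opens the breakdown of tryptophan, was at 0.36 to 1.18 (0.555) in islets and 367 to 951 (623) in liver, and Hpd, of tyrosine breakdown, at 0 to 0.43 (0.025) in islets and 741 to 2341 (1535) in liver. Glul, which makes glutamine, was high in both at 112.03 to 207.1 (163) in islets and 247 to 469 (359.7) in liver, and its difference of -1.16 shrank to -0.07 after quantile normalization.

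All 15 genes of detoxification and bile acids were higher in liver (median difference -8.42). Cyp2e1, the ethanol-inducible P450, was at 0 to 2.62 (0.105) in islets and 2939 to 9113 (4963) in liver. Cyp7a1, the rate-limiting enzyme of bile acid synthesis, was far lower and more variable, at 0 to 0.03 (0) in islets and 4.23 to 99.4 (17.9) in liver. The bile acid importer Slc10a1 was at 0 to 0.14 (0.04) in islets and 293 to 487 (373) in liver. For the glutathione transferases Gstp1 and Gstm1 islets were not near 0, at 58.2 to 161 (70.2) and 37.5 to 102.1 (47.9), but liver was higher at 945 to 8463 (3139) and 266 to 1921 (891). The groups did not overlap.

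Glucose metabolism showed a different pattern, an exchange of isozymes, enzymes of the same reaction from different genes. Of 35 tested genes, 13 were higher in islets, 16 in liver and 6 were not called. Of all genes tested, 39.1% were higher in islets, near the share of this list, and 15.5% in liver. The median of the list, -0.49, carried no direction, since it was -0.87 after median ratio scaling and 0.21 without the most abundant genes. Single members were far apart all the same. In the gene pairs and trios of the pathway, islets and liver mostly held different members.

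At entry, both tissues held the same transporter. Slc2a2, for the high-capacity transporter GLUT2, was at 134 to 357 (241) in islets and 51.3 to 124 (88.8) in liver, a difference of 1.41 ± 0.08 that fell to 0.93 after median ratio scaling. Hk1, a hexokinase that works at low glucose, was at 1.57 to 3.49 (2.55) in islets and 0.24 to 0.95 (0.645) in liver.

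The last step of glucose release was split cleanly. G6pc, the glucose-6-phosphatase of liver, was at 0 to 0.09 (0.02) in islets and 79.0 to 359 (164) in liver, while its relative G6pc2 was at 785 to 1925 (1182) in islets and 0 to 5.42 (0.07) in liver. Thus a phosphatase gene of this family was abundant in either tissue, G6pc2 in islets with a difference of 9.84 ± 0.16 and G6pc in liver with -7.30 ± 0.10. Pck1, for the cytosolic enzyme that opens gluconeogenesis, was at 0 to 0.5 (0.05) in islets and 597 to 2138 (1117) in liver, and Pck2, for its mitochondrial counterpart, at 25.9 to 42.7 (33.2) in islets and 0.36 to 1.60 (0.745) in liver. Fbp1, the next enzyme on that route, was at 1.84 to 4.13 (2.98) in islets and 485 to 1151 (627) in liver. Neither pair overlapped in any library.

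Glycolysis exchanged its members in the same fashion. Pyruvate kinase came as Pkm in islets, 223 to 365 (292) against 3.21 to 12.6 (6.52) in liver, and as Pklr in liver, 24.3 to 179 (63.9) against 4.33 to 7.40 (6.17) in islets. Lactate dehydrogenase came as Ldhb in islets, 9.23 to 20.9 (13.7) against 1.09 to 2.86 (1.54), and as Ldha in liver, 265 to 964 (522) against 5.01 to 9.81 (6.75). All 4 genes were without overlap. Aldoa, which splits the sugar earlier in the pathway, was at 220.0 to 326 (258) in islets and 55.8 to 133 (71.1) in liver. Phosphofructokinase had Pfkm (1.92 ± 0.04) and Pfkp (2.51 ± 0.04) higher in islets, while Pfkl was not called at 12.9 to 24.3 (17.5) in islets and 8.75 to 17.0 (12.5) in liver, with a difference of 0.45 as deposited and 1.12 without the most abundant genes. The bifunctional enzymes that tune it were divided into Pfkfb2, at 19.4 to 58.9 (42.0) in islets and 2.16 to 7.61 (5.16) in liver, and Pfkfb1, at 0.2 to 0.58 (0.34) in islets and 7.40 to 23.2 (12.4) in liver. Enzymes present as a single main gene, such as Gapdh at 221 to 419.1 (311.2) in islets and 893 to 2628 (1222) in liver and Tpi1 at 48.3 to 71.2 (61.3) in islets and 187 to 305.6 (224) in liver, were higher in liver, Gapdh by less than 1 after quantile normalization (-0.79).

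**Figure D2:**
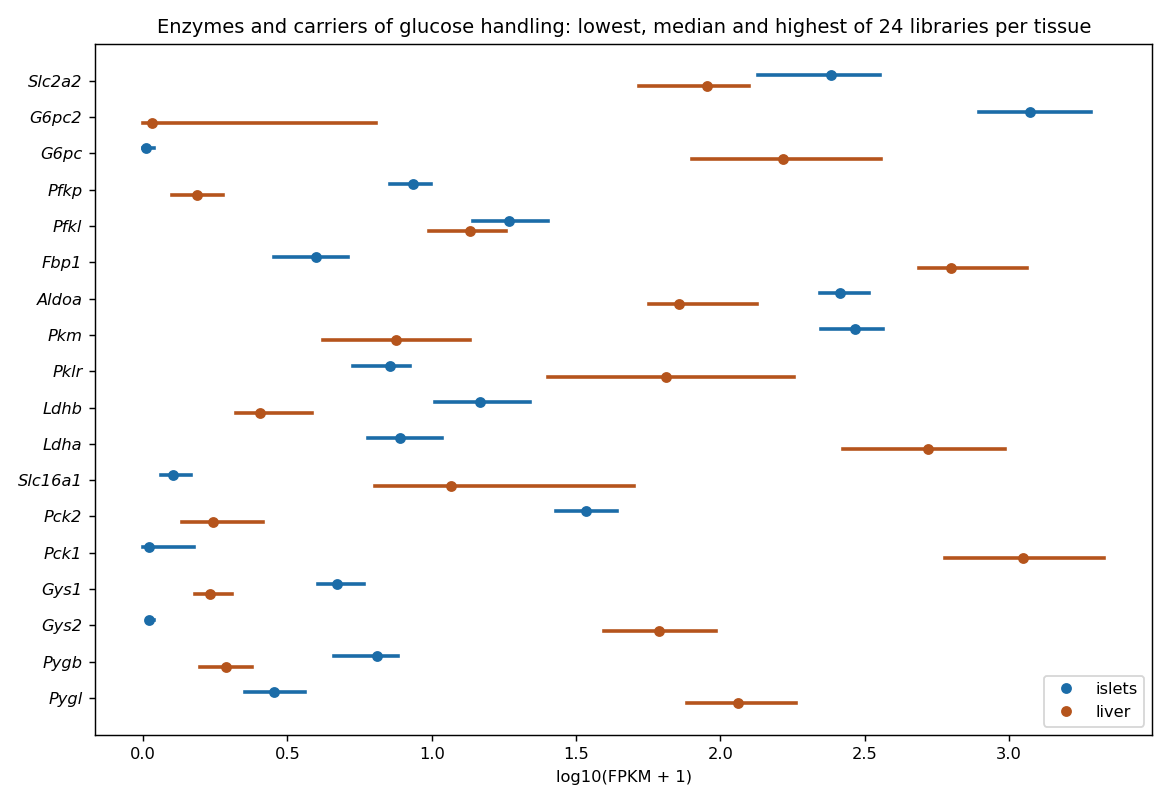
Genes of glucose handling in the 24 islet and 24 liver libraries of CD mice, with the range as a line and the median as a dot on a scale of log10(FPKM + 1). Pkm, Aldoa, Ldhb, G6pc2 and Pck2 lie higher in islets and Pklr, Ldha, G6pc and Pck1 in liver, without overlap.

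Glycogen genes followed suit, with 3 higher in islets, 5 in liver and 1 not called of 9 tested. Glycogen synthase came as Gys1 in islets, 3.03 to 4.84 (3.71) against 0.51 to 1.03 (0.71) in liver, and Gys2 in liver, 38.6 to 95.5 (60.2) against 0.03 to 0.09 (0.05) in islets. Phosphorylase, which breaks glycogen down, came as Pygb, 3.60 to 6.64 (5.46) in islets and 0.58 to 1.39 (0.945) in liver, and as Pygl, 1.25 to 2.65 (1.85) in islets and 75.7 to 181 (114.4) in liver. After quantile normalization the differences of Gys1 and Pygb fell under 1, to 0.61 and 0.87.

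Some genes that most tissues use are known to be kept silent in beta cells, among them those that would let lactate or other signals release insulin at the wrong time. Of 26 tested genes of that list, 21 were higher in liver, 1 in islets and 4 were not called (median difference -4.00), beside 15.5% of all genes higher in liver. Slc16a1, the transporter for lactate and pyruvate, was at 0.15 to 0.46 (0.265) in islets and 5.34 to 49.1 (10.7) in liver. Ldha, its companion, was named above. Cat, for catalase, was at 2.98 to 5.81 (4.01) in islets and 776 to 1304 (1003) in liver, Mgst1, a membrane glutathione transferase, at 1.20 to 7.16 (2.71) in islets and 1939.9 to 3520.3 (2808) in liver, and Igfbp4, a carrier of growth factors, at 2.64 to 9.79 (5.82) in islets and 674 to 1559 (1005) in liver. Hk1 was the gene of the list higher in islets, and its difference of 1.14 fell under 1 after median ratio scaling (0.87) and quantile normalization (0.30). A low level beside liver does not say how islets compare with other tissues, which were not measured.

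The defense against peroxide was weaker in transcripts of islets. Of 19 tested antioxidant genes 14 were higher in liver, 1 in islets and 4 were not called (median difference -1.58). Gpx1, the main peroxide-reducing selenoenzyme of cells, was at 36.8 to 61.3 (53.6) in islets and 1101 to 2424 (1541) in liver, and Sod1, which turns superoxide into peroxide, at 200.1 to 334 (225) in islets and 1148 to 2049 (1561) in liver. Prdx1 was at 62.0 to 99.1 (78.4) in islets and 427 to 599 (539.7) in liver. Gpx3, the plasma form of the enzyme, was the islet gene, at 96.5 to 266 (176) in islets and 2.38 to 12.3 (5.46) in liver. Txnrd1 and Nqo1 were among those not called, and Txnrd1 had nearly equal values, 28.5 to 41.7 (34.1) in islets and 28.3 to 41.1 (34.5) in liver, with a difference of -0.46 after median ratio scaling and 0.69 without the most abundant genes.

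Fat handling leaned to liver in most called genes, for building and for burning. For lipid synthesis, 2 of 13 tested genes were higher in islets, 6 in liver and 5 were not called, and the list median of -0.53 turned to 0.16 without the most abundant genes. Acly, which makes acetyl-CoA in the cytosol, was an islet gene, at 292 to 468 (350.0) in islets and 14.8 to 71.7 (25.7) in liver. The desaturases were divided into Scd2, at 11.4 to 31.1 (20.8) in islets and 0.19 to 1.08 (0.73) in liver, and Scd1, at 0.65 to 2.37 (1.36) in islets and 32.7 to 2653 (371) in liver. Scd1 in liver spanned the widest range of the list. Fasn, the fatty acid synthase, was not called, at 12.6 to 22.1 (17.9) in islets and 3.73 to 91.5 (17.2) in liver, and its difference of -0.19 turned to 0.48 without the most abundant genes.

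Of 13 tested genes for fatty acid oxidation and ketone bodies, 10 were higher in liver, 2 in islets and 1 was not called (median difference -2.27). Acadm, which opens the oxidation of medium-chain fatty acids, was at 7.36 to 11.3 (9.39) in islets and 67.7 to 295 (149) in liver. Cpt1a, the gate for fatty acids into mitochondria, was at 10.7 to 24.3 (20.0) in islets and 55.9 to 144 (96.4) in liver. Oxct1, which lets a tissue use ketone bodies and which hepatocytes are known to lack, was at 19.5 to 34.4 (25.2) in islets and 0.37 to 1.34 (0.875) in liver, without overlap. Hadh, whose loss causes excess insulin release, was not called, since its difference of 0.94 ± 0.05 lay under 1, although every islet library, 265 to 405.4 (341), was above every liver library, 128 to 217.4 (169.7). That difference was 1.65 without the most abundant genes and 2.10 after quantile normalization.

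Secreted proteins are folded in the endoplasmic reticulum. Of 22 tested genes for folding and stress in it, 13 were higher in islets, 0 in liver and 9 were not called (median difference 1.09, and 0.62 after median ratio scaling), beside 39.1% of all genes higher in islets and a median of 0.66. For 7 of the 22 genes islets lay above liver without overlap, beside 43.2% of all genes. Ero1lb, an oxidase that forms disulfide bonds in islet cells, was at 416.03 to 828 (553) in islets and 12.8 to 35.6 (18.7) in liver, a difference of 4.80 ± 0.06. Eif2ak3 (PERK) and Ern1 (IRE1), which sense unfolded proteins, were at 13.8 to 21.2 (16.1) in islets and 1.83 to 5.98 (2.87) in liver and at 23.4 to 41.1 (31.7) in islets and 3.26 to 10.4 (6.01) in liver, respectively. The chaperone Hspa5 was closer, 328 to 713 (439) in islets and 93.3 to 701 (221) in liver, and its difference of 1.07 ± 0.12 fell to 0.59 after median ratio scaling. Pdia4 and Calr were not called, with 42.9 to 96.1 (56.8) in islets and 27.0 to 145 (58.4) in liver and 278 to 519.7 (366) in islets and 172 to 569.5 (358) in liver. Their differences were -0.46 and -0.34 after median ratio scaling, and that of Calr was 1.40 after quantile normalization.

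Insulin signaling genes were close to all genes. Of 14 tested, 5 were higher in islets, 1 in liver and 8 were not called, with a median difference of 0.68, beside 39.1% of all genes higher in islets, 15.5% in liver and a median of 0.66. Irs2, an adaptor of the insulin receptor, was at 4.14 to 12.6 (6.57) in islets and 0.83 to 5.27 (2.08) in liver, and Akt1 at 48.0 to 71.7 (58.2) in islets and 18.1 to 34.2 (22.3) in liver. The gene higher in liver was the inhibitor Grb14, at 10.4 to 16.0 (12.8) in islets and 19.4 to 36.4 (27.0) in liver, and its difference of -1.01 shrank to -0.34 without the most abundant genes. Akt1 fell under 1 after median ratio scaling (0.83) and Irs2 after quantile normalization (0.65). Akt2, the main form in insulin-responsive tissues, was at 26.2 to 44.0 (34.8) in islets and 27.3 to 52.3 (38.1) in liver and was not called, with a difference of -0.13 as deposited and 0.56 without the most abundant genes.

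Receptor transcripts were divided between the tissues. Of 18 tested receptor genes 9 were higher in islets, 6 in liver and 3 were not called, beside 39.1% of all genes higher in islets and 15.5% in liver. Gcgr, the glucagon receptor, was mainly a liver gene but present in every islet library, 6.86 to 19.4 (13.8) in islets and 113.8 to 220.5 (155) in liver, a difference of -3.42 ± 0.08 (adjusted p = 2.3e-25, 24 of 24 mice). The incretin receptor Glp1r, target of drugs against diabetes, was at 59.7 to 148 (101.9) in islets and 0 to 0.59 (0) in liver, and Gipr at 16.9 to 68.8 (45.9) in islets and 0.01 to 0.16 (0.045) in liver. Ffar1, which senses fatty acids, was at 16.3 to 41.7 (31.8) in islets and 0 to 0.18 (0) in liver, and Adra2a, through which adrenaline stops insulin release, at 22.4 to 64.4 (39.8) in islets and 0 to 0.19 (0.01) in liver. Incretin and fatty acid receptors were thus at or near 0 in liver.

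For growth signals the split was by receptor type. Igf1r was at 4.98 to 10.9 (7.33) in islets and 0.15 to 0.33 (0.215) in liver, while Insr, for the insulin receptor, was not called, with 5.24 to 9.85 (8.09) in islets and 6.46 to 14.9 (11.4) in liver, a difference of -0.45 that turned to 0.20 without the most abundant genes. Egfr was at 3.23 to 5.16 (4.21) in islets and 27.7 to 107.3 (79.3) in liver, and Fgfr4, the receptor for the gut hormone that curbs bile acid synthesis, at 0.68 to 1.56 (1.12) in islets and 12.1 to 21.2 (17.9) in liver. Ghr, for growth hormone, was abundant in both, 38.7 to 82.7 (62.9) in islets and 104.9 to 202.00 (161) in liver, and its difference of -1.33 shrank to -0.63 without the most abundant genes. Prlr, the prolactin receptor, which lets islets grow in pregnancy, was not called at 11.1 to 57.9 (27.4) in islets and 13.7 to 38.1 (23.9) in liver, and its difference of 0.26 turned to -0.19 after median ratio scaling.

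Of 15 tested genes for signals that one tissue may send, 11 were higher in liver, 3 in islets and 1 was not called (median difference -5.05). Igf1 was at 0.14 to 0.92 (0.35) in islets and 48.0 to 87.8 (72.1) in liver, which together with Igf1r placed ligand and receptor in different tissues by level. Hamp, the iron hormone hepcidin, was at 0 to 0.21 (0) in islets and 159 to 2735 (604.8) in liver, Angptl8, a feeding signal, at 0.04 to 1.15 (0.24) in islets and 13.0 to 129 (34.4) in liver, and Igfbp1, which falls with insulin, at 0 to 0.05 (0) in islets and 8.20 to 151 (38.2) in liver. Cx3cl1, a chemokine that islets make, was at 5.46 to 10.9 (7.71) in islets and 0.09 to 0.43 (0.215) in liver, and its receptor Cx3cr1 at 1.23 to 2.63 (1.94) in islets and 0.03 to 0.43 (0.175) in liver, a difference that fell under 1 after quantile normalization (0.72). Serpinb1a, an elastase inhibitor known as a liver signal to islets, was not called, with 0.75 to 9.39 (2.56) in islets and 0.74 to 6.67 (2.16) in liver, and its sign rested on scaling (0.32 as deposited, -0.46 after quantile normalization). Fgf21 and Hgf were under the filter, at 0.23 to 20.2 (1.99) and 0.53 to 2.55 (1.66) in liver and 0 to 5.67 (0.52) and 0.17 to 0.97 (0.45) in islets.

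Among KEGG pathways named in the authors' table, Ribosome and Proteasome had few called genes. For Ribosome 7 of 151 tested genes were higher in islets and 11 in liver, beside 39.1% and 15.5% of all genes tested. Its median difference of -0.13 turned to 0.56 without the most abundant genes. Proteasome had 2 and 11 of 50 (median -0.52, turned to 0.15) and the citrate cycle 7 and 17 of 53 (median -0.66, turned to 0.02). The translation factors Eef1a1 and Eef2, at 1453 to 2391 (1685) and 384 to 769.8 (516.8) in islets and at 1905 to 2831 (2382) and 374 to 786 (504.97) in liver, were among the genes with the highest lower mean of the 2 tissues. So were Ftl1, Tpt1, Rpl10, Rpl41, Ubb, Rplp1 and a gene listed as Col19a1, whose high level in both tissues may come from the assignment of reads in the table, which was not tested.

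Further pathways lay on the liver side, on the islet side or near all genes. Oxidative phosphorylation had 61 of 121 genes higher in liver and 16 in islets, Peroxisome 56 and 8 of 98 (median -1.45), Fatty acid degradation 40 and 2 of 49 (median -2.89), and PPAR signaling 49 and 14 of 80 (median -2.09). Higher in liver were also 66 of 88 genes of Complement and coagulation cascades (7 in islets, median -5.95), 57 of 69 of Retinol metabolism (5, -5.31), 53 of 59 of xenobiotic metabolism by P450 (3, -4.02) and 15 of 19 of Primary bile acid biosynthesis (0, -4.55). The islet side held 55 of 79 genes of Insulin secretion (3 in liver, median 1.72), 36 of 59 of Synaptic vesicle cycle (5, 1.47), 60 of 105 of Pancreatic secretion (13, 1.33) and 17 of 28 of Maturity onset diabetes of the young (6, 1.57). Islet libraries also held acinar transcripts, as described further on, and their part in Pancreatic secretion was not tested. Axon guidance had 71 and 20 of 155 (0.90), Protein processing in endoplasmic reticulum 77 and 6 of 198 (0.76), Spliceosome 68 and 10 of 209 (0.72), SNARE interactions 10 and 1 of 33 (0.69) and Lysosome 57 and 17 of 144 (0.66). The medians of these last 5 lay near that of all genes.

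Both tissues of a mouse came from the same animal, which lets transcripts that vary within the day be compared across organs. The molecular clock is a loop in which Arntl and its partners switch on Per and Cry genes, whose products switch them off. Of 14 tested clock genes 3 were higher in islets, 1 in liver and 10 were not called (median difference 0.70). The output gene Dbp ranged widely in both tissues, 7.33 to 71.8 (25.0) in islets and 0.43 to 174 (57.1) in liver, and so did Arntl, 1.01 to 8.92 (3.10) in islets and 0.23 to 9.25 (1.14) in liver. Their ranges overlapped almost wholly. Scaling moved such genes past 1 in either direction, with Dbp, Ciart and Tef at -1.24, -1.02 and -1.02 after median ratio scaling and Arntl, Per1 and Per3 at 1.13, 1.48 and 1.03 without the most abundant genes, while Clock, called higher in islets, fell to 0.84 after quantile normalization. The repressor gene Cry2 was higher in islets, at 26.1 to 73.2 (38.0) in islets and 3.84 to 14.4 (9.62) in liver, and the output factor Hlf in liver, at 1.56 to 4.30 (2.23) in islets and 7.45 to 18.2 (11.7) in liver.

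Levels of 31 genes of the clock, immediate early and interferon lists were correlated between islets and liver over the 24 mice after the mean of each week was subtracted, with 31 relations tested and p-values from 100000 two-sided permutations within weeks. By Pearson r, 2 genes passed Benjamini-Hochberg adjustment, both of the clock, and by Spearman rho 4 did, these 2 with Per3 and the immediate early gene Egr1. Arntl had a Pearson r of 0.76 (permutation p = 0.0003, adjusted p = 0.0077) and a Spearman rho of 0.75 (p = 0.00028, adjusted p = 0.0043), and 23 of 24 mice lay on the same side of their week's mean in both tissues. Per1 had an r of 0.76 (permutation p = 0.0005, adjusted p = 0.0077) and a rho of 0.79 (p = 0.00015, adjusted p = 0.0043), with 20 of 24 mice on the same side. Without the 2 mice farthest from the median, r was 0.70 for Arntl and 0.73 for Per1. A mouse with high Arntl in islets thus also had high Arntl in liver. The labels do not give the hour of sampling of each mouse, and its part in the relation was not tested.

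The 13 clock genes had a median r of 0.50, the 7 immediate early genes 0.47 and the 11 interferon genes -0.02, over 24 mice each. Tef and Ciart, further outputs of the clock, had an r of 0.58 and 0.53, each with an adjusted p = 0.064 by permutation and 17 and 18 mice on the same side, and failed the threshold. Among immediate early genes, which respond within minutes to a stimulus, Ier2 had an r of 0.62 (adjusted permutation p = 0.064, 16 mice) that fell to 0.41 without the 2 farthest mice, and Egr1 0.59 (adjusted permutation p = 0.064, 18 mice). By rank both Egr1, with a rho of 0.63 (permutation p = 0.0027, adjusted p = 0.028), and Per3, with a rho of 0.58 (permutation p = 0.0048, adjusted p = 0.037, 17 mice), passed, while the r of Per3 was 0.49 (adjusted permutation p = 0.085). Without the 2 farthest mice, r was 0.52 for Egr1 and 0.59 for Per3. By level, 5 of 10 tested immediate early genes were higher in islets, 1 in liver and 4 were not called (median difference 0.96). These counts lay near the 39.1% of all genes higher in islets and 15.5% in liver. Egr1 was not called, with a difference of 0.85 as deposited and 1.46 without the most abundant genes. Fos, their best known member, was at 1.11 to 101.9 (16.0) in islets and 0.12 to 36.03 (0.775) in liver. Interferon response genes had 1 of 11 higher in islets and 5 in liver, with a median of -0.39 that turned to 0.04 without the most abundant genes. Bst2 was at 5.11 to 9.32 (6.15) in islets and 88.1 to 205.8 (130.1) in liver and Usp18, the islet gene, at 9.09 to 15.8 (10.9) in islets and 1.95 to 5.57 (4.12) in liver. The difference of Usp18 fell under 1 after median ratio scaling (0.99) and quantile normalization (0.75). Genes of dividing cells were low in both, with 2 of 13 tested, of which Mcm2 was higher in islets at 2.45 to 5.91 (3.58) in islets and 0.33 to 1.06 (0.57) in liver and Pcna was not called. Mcm2 fell under 1 after quantile normalization (0.71).

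**Figure D3:**
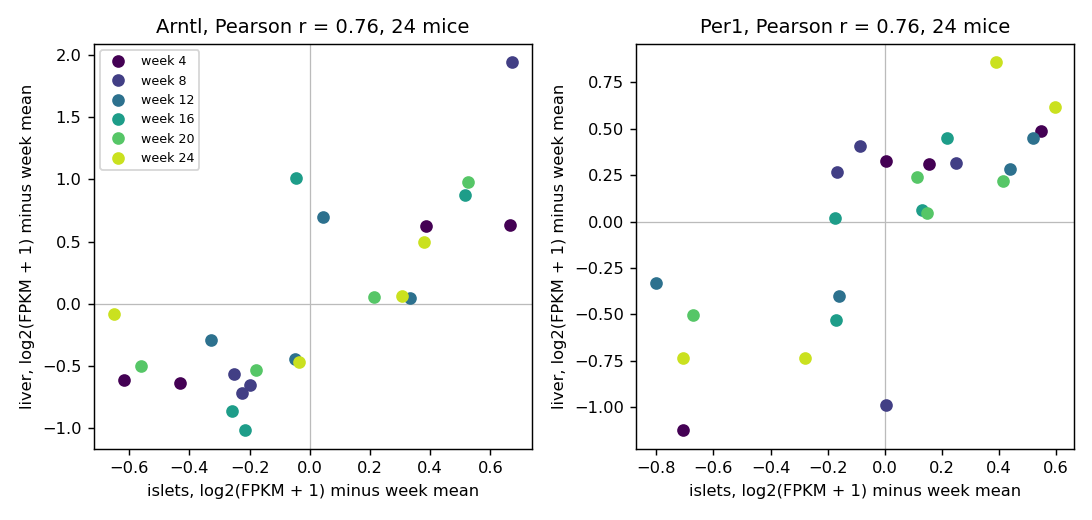
Islet against liver level of Arntl and Per1 in log2(FPKM + 1) after subtracting the mean of each week, with a point per mouse and weeks by color. The 24 mice rise together in both panels, with a Pearson r of 0.76 for each gene.

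Markers of other cell types were read in both tissues to see what else the samples held. In islets the largest such signal was acinar, from the cells of the exocrine pancreas that make digestive enzymes. All 20 tested of 23 acinar markers were higher in islets (median difference 9.28), led by the amylase gene Amy2a5 at 2124 to 57147 (12519) in islets and 0 to 30.9 (0.02) in liver and by the trypsin gene Prss2 at 475 to 12634 (2028) in islets and 0 to 16.9 (0.11) in liver. Their summed level in islets was 7171 to 174663 FPKM (31986), or 0.766 to 16.8% (3.18%) of an islet library, and 11.5 to 188.5 FPKM (30.1) in liver, where Cela1 was the most abundant. Ptf1a, the defining transcription factor of acinar cells, was at 0.15 to 3.32 (0.62) in islets and listed at 0 in all livers. By median the sum was highest at week 12, between 72574 and 174663 FPKM, then at week 16 with 40458 to 74778, and lowest at week 20 with 7171 to 21240 FPKM. In the same libraries insulin genes had their lowest share at week 12, 53.7 to 59.2% of summed FPKM. The part of acinar RNA in the tissue differences was not tested.

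Other cells of the pancreas and liver showed smaller signals. Of 7 tested duct markers 2 were higher in islets, Krt7 at 88.2 to 169 (115.97) in islets and 0.14 to 3.27 (0.285) in liver and Muc1, and 5 were not called, and of 4 tested bile duct markers Krt7 and Epcam (45.0 to 64.8 (54.9) in islets and 0.32 to 1.09 (0.585) in liver) were higher in islets and 2 were not called. General endothelium markers were islet genes, 5 of 6 tested, as Kdr at 23.8 to 33.5 (28.3) in islets and 0.7 to 6.30 (3.22) in liver and Flt1 at 13.5 to 25.1 (18.0) in islets and 0.25 to 1.03 (0.615) in liver. Markers of the special endothelium of liver sinusoids were on the other side, 5 of 6 tested, as Stab2 at 0.18 to 0.52 (0.38) in islets and 6.47 to 14.3 (9.10) in liver. Plvap was the most abundant general endothelium marker in both tissues. Kupffer cell markers had 3 of 7 tested higher in liver and 4 not called: Clec4f, which marks these resident macrophages, was at 0 to 0.04 (0) in islets and 11.2 to 37.8 (19.9) in liver, whereas the general macrophage gene C1qa was at 25.9 to 52.4 (39.3) in islets and 16.1 to 53.7 (29.9) in liver, and its difference of 0.33 became -0.13 after median ratio scaling and 1.02 without the most abundant genes.

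Markers of stellate and stromal cells had 1 of 7 higher in islets (Pdgfrb), 1 in liver and 5 not called, with a median of 0.27 that turned to -0.03 after median ratio scaling. The difference of Pdgfrb was at the threshold and fell to 0.68 after median ratio scaling, 0.12 after quantile normalization and 0.97 without the 4 mice with the most Ins2 in liver. Dcn, the matrix gene higher in liver, was at 1.34 to 21.1 (9.21) in islets and 22.8 to 71.9 (50.9) in liver. Of 5 red blood cell markers 5 were higher in liver (median difference -1.77), with a summed level of 186 to 3404 FPKM (515) there and 73.4 to 326 (161) in islets, and Hba-a1 as the most abundant. Hbb-bs fell under 1 without the most abundant genes (-0.99) and after quantile normalization (-0.96). Of B cell markers only Cd79a was tested and was higher in islets, at 2.74 to 18.8 (8.01) in islets and 0.22 to 1.16 (0.645) in liver. Of Schwann cell and nerve markers 1 gene was tested and was higher in islets, and Sox10, below the filter, was at 0.35 to 1.62 (0.675) in islets and 0 to 0.02 (0) in liver. T cell and adipocyte markers had 0 genes that passed the filter, with sums of at most 4.48 and 0.18 FPKM in islets and 1.9 and 6.71 FPKM in liver, and Lep was listed at 0 in all 48 libraries.

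The lists of islet cell types held genes that liver also expresses. All 10 beta cell markers were higher in islets, as were both pancreatic polypeptide cell markers. Alpha cell markers had 4 of 7 higher in islets, with Ttr and Gc higher in liver and 1 not called, and of 3 tested delta cell markers Sst was higher in islets while Hhex (2.81 to 7.52 (5.69) in islets and 20.4 to 70.2 (35.7) in liver) and Rbp4 were higher in liver. Gc, for the vitamin D carrier of plasma, was at 49.6 to 93.5 (67.4) in islets and 2643 to 4147 (3588) in liver. All 10 hepatocyte markers were higher in liver, and the most abundant in islets was Tat, a tyrosine-degrading enzyme, at 7.40 to 25.4 (11.6).

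Beta cell transcripts in liver were uneven. Ins2 was listed at 0 in 7 livers, all 4 of week 20, 2 of week 12 and 1 of week 8, and exceeded 100 FPKM in 4, mice CD304, CD306, CD403 and CD407 of weeks 12 and 16. The highest, CD306, had 2467 FPKM, 0.574% of the Ins2 of the same mouse's islets. In that liver Ins1 stood at 0.680%, Iapp at 0.569%, Chga at 0.530%, Gcg at 0.235%, Sst at 0.247% and Prss2 at 0.275% of the islet level. Without these 4 mice, which were chosen after the values were seen, 4772 genes were called higher in islets and 1821 higher in liver. What brought the transcripts there was not tested.

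The reverse signal was smaller and followed the same weeks. Alb in islets reached at most 13.3 FPKM, 0.0367% of the liver level, and it was 3.72 to 13.3 FPKM at weeks 12 and 16 but 0.20 to 0.85 FPKM at the other weeks. Hp, Fgb and Serpina1a in islets had their highest medians at week 16 as well, with 0.97, 0.725 and 2.54 FPKM. No week had a range of Alb in islets near that in liver. Whether handling at these weeks differed was not tested.

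**Figure D4:**
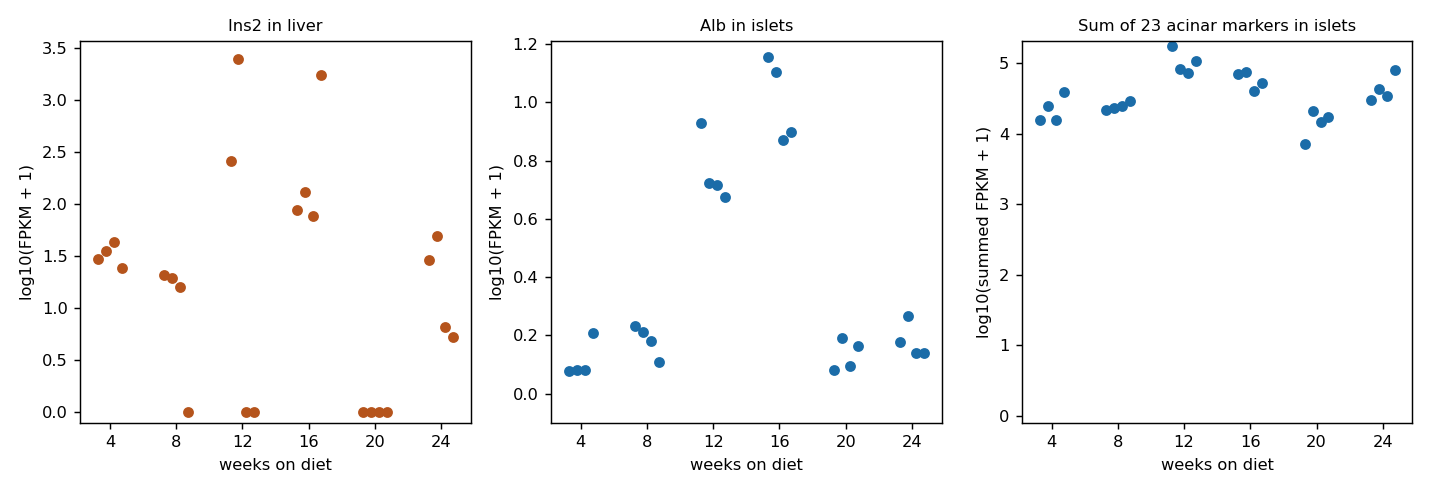
Ins2 in liver, Alb in islets and summed acinar markers in islets by weeks on CD, on a scale of log10(FPKM + 1) with a point per mouse. Islet libraries of weeks 12 and 16 have the highest median acinar sums and 3.72 to 13.3 FPKM of Alb, and all 4 livers of week 20 have Ins2 listed at 0.

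Most of the tissue difference was present at every time point. Within single weeks, from 4 to 24 in order, limma called 6696 (56.8), 6512 (55.2), 6010 (51.0), 6525 (55.4), 6835 (58.0) and 6340 (53.8) genes, with percent of genes tested in parentheses. Of these genes, 3597 were called higher in islets and 1558 higher in liver in all 6 weeks, 4066 were called in no week, and 4 were called in opposite directions in different weeks. The week with the fewest calls, week 12, was the week with the highest acinar sum in islets.

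The size of the difference depended on the week for 4986 genes (42.3) by limma's moderated F test with an adjusted p under 0.05. Plasma proteins were often among them, 24 of 28. Alb, whose traces in islets were highest at weeks 12 and 16, was at -12.76 and -11.77 in those weeks and at -14.59 to -13.94 in the others. The part of such traces in the week dependence of the list was not tested. Often among the 4986 genes were also Kupffer cell markers, 7 of 7, fatty acid oxidation genes, 12 of 13, islet transcription factors, 12 of 14, and channels, 9 of 10. Clock genes had 1 of 14 and antioxidant genes 4 of 19. Each week is a separate set of 4 mice, so that age, time on CD and whatever else differed between weeks cannot be told apart.

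The genes with the smallest p for week dependence differed mainly in islets. Lmtk3, a kinase of neurons, was at 2.05 to 2.84 FPKM (2.60) in islets of week 12 and 15.9 to 19.3 (18.7) in those of week 20, with 0 to 0.07 in liver. Olfm4, a secreted glycoprotein, was at 5.97 to 8.51 (7.98) at week 12, 8.23 to 17.3 (15.9) at week 4 and 34.1 to 41.0 (37.8) at week 8. Ubp1, a transcription factor, followed them with 6.54 to 8.92 (8.83) at week 12 and 20.2 to 25.2 (21.9) at week 24 in islets, while its liver values stayed at 14.1 to 20.4 in all weeks. For all 3 the tissue difference was lowest at week 12 and next lowest at week 4. It was 1.78 and 2.82 for Lmtk3, 2.97 and 3.77 for Olfm4, and -0.90 and -0.22 for Ubp1. For Lmtk3 week 16 lay near week 4, at 3.13. Dgcr6 moved in liver, where week 4 had 3.77 to 5.88 (4.82) and week 8 had 20.5 to 28.2 (24.3), while islets had 9.57 to 16.8 in all weeks. Gm21320, the urinary protein gene, had 4.39 to 8.42 (6.76) in islets of week 16 and was listed at 0 in those of weeks 8 and 20.

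The HFD mice of the study, 24 with both tissues, served to ask whether the tissue difference depends on the diet. Of 12566 genes tested, 129 (1.03) had a tissue difference that differed between HFD and CD by at least 1 with an adjusted p under 0.05 in limma, 39 with the larger islet minus liver difference on HFD and 90 with the larger on CD, and by adjusted p alone 3898 (31.0) did. With a pseudocount of 0.1 the count was 335, so that it depends on how low values are treated. The smallest p belonged to Adgrv1, an adhesion receptor, at 1.01 to 3.04 FPKM (1.78) in liver of CD and 2.96 to 36.2 (14.96) in liver of HFD mice, with at most 1.37 in islets of either diet. Its tissue difference fell by 2.71 ± 0.21 (adjusted p = 1.3e-13, 24 mice a diet).

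Also among the 5 smallest p, but with a change under 1 and so not among the 129, were the islet genes Gucy2c, the receptor for gut guanylin peptides, at 5.34 to 9 (7.70) in CD and 9.60 to 25.7 (17.3) in HFD islets, and Me3, a mitochondrial malic enzyme, at 1.17 to 2.89 (1.88) and 2.59 to 6.57 (4.79). Reln was at 0.43 to 2.99 (1.27) in CD and 0.05 to 1.02 (0.225) in HFD islets. Cyp26a1, which breaks down retinoic acid, was a liver gene at 2.48 to 61.3 (8.61) in CD and 0.27 to 2.45 (0.875) in HFD liver, without overlap. Among the islet hormones, 7 of 10 changed their tissue difference by diet, beside 1.03% of all genes tested. Sst and Pyy in islets were at 2113 to 4753 (3566) and 1166 to 2340.2 (1634) in CD and at 321 to 3917 (1431) and 181 to 1857 (862) in HFD mice, whereas for Ins1, Ins2 and Iapp the traces in liver entered the difference too, with Ins2 at 0 to 2467 (21.6) in CD and 0 to 272 (0) in HFD livers.

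Promoters were read to show which short sequences stand before genes of either side. RefSeq GRCm38.p6 promoters, 250 bases before and 50 bases after the annotated start, were found for 9486 of the 11787 tested genes, and Ins2 had no entry. The motif CAAAGTCCA, bound by HNF4, was present on either strand in 1.11% of promoters of genes called higher in liver (16 of 1447). It was in 0.273% of those higher in islets (10 of 3666). Past a difference of 5 the shares were 3.44% in liver (10 of 291) and 0.645% in islets (1 of 155), so that they rest on few promoters. Beside these stood 0.432% of all genes tested and 0.477% of all 27025 promoters. For GCCATCTG, an E box found in insulin genes, the shares were 1.31% in liver, 0.791% in islets and 0.991% of genes tested, and for CACGTG, the E box of the clock, 8.98%, 10.7% and 10.4%, beside 1.35% and 7.24% of all promoters. Past a difference of 5, GCCATCTG was in 2.06% of liver (6 of 291) and 1.94% of islet promoters (3 of 155), and CACGTG in 4.47% (13) and 9.03% (14). TATAAA, the core of the TATA box, was in 12.2% of liver and 6.30% of islet promoters, 7.34% of those of genes tested and 14.2% of all, and in 22.0% and 14.2% of those past a difference of 5 in liver and in islets. None of the 4 motifs contains another, and CACGTG reads the same on both strands. These shares are descriptions of letters and show no binding.

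The promoters of a main islet gene, of a bile acid enzyme of liver and of clock genes compared between tissues are given with the matched letters in capitals, 5′ to 3′ on the strand of the gene. Ins1 is at chr19:52264047-52264346 on the plus strand and holds GCCATCTG 2 times. Cyp8b1, at chr9:121916256-121916555 on the minus strand, holds the HNF4 motif 1 time, in capitals, and TATAAA 1 time, left in lower case. Per1, at chr11:69098699-69098998 on the plus strand, holds CACGTG 1 time and Ciart, at chr3:95882179-95882478 on the minus strand, 3 times.
Ins1: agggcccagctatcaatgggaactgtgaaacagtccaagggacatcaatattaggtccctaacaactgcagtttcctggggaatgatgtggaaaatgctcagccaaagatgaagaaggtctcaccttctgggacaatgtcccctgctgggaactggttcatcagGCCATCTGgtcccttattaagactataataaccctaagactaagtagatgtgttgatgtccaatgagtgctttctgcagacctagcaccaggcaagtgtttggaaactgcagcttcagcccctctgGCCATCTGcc
Cyp8b1: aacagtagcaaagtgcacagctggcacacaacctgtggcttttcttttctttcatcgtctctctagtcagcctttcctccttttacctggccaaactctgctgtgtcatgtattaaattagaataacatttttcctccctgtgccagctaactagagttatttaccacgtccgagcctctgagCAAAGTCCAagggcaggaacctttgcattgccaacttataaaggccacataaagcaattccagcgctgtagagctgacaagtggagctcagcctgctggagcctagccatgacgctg
Per1: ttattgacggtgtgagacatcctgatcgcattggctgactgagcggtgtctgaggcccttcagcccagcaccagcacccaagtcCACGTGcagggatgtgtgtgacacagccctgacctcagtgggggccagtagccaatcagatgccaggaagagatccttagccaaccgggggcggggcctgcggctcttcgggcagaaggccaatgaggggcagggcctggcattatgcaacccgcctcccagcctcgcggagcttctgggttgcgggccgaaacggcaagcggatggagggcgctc
Ciart: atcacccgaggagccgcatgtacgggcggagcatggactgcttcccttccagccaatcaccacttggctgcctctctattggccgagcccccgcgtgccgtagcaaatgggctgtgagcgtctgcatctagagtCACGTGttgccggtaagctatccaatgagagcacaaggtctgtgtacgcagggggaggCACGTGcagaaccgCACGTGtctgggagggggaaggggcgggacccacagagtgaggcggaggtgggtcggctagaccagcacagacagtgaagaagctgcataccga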

How the data were processed

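The FPKM values were computed by the authors before they deposited the table: per their processing notes, reads of poly(A) libraries from a BGISEQ-500 were aligned with HISAT2 2.0.4 and Bowtie2 2.2.5 to GRCm38.p5 and counted with RSEM 1.1.12. Their table lists 21990 genes and gives values for 20155, to 2 decimals and without counts, so that depth is unknown from it. Its columns of log2 ratios, p-values and q-values between diets were not used, and its KEGG column was used for pathway members. Gene symbols were matched by identifier to RefSeq GRCm38.p6, which updated 27.

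Values were taken as log2(FPKM + 1) and tested with limma 3.58.1 in R 4.3.3, with a mean-variance trend, robust variances, the mouse as a block and Benjamini-Hochberg adjustment. Week and diet dependence were tested as differences between tissue differences, and permutation tests were run in Python 3.11.15. Named are the 10 largest and 10 smallest differences among called genes with 1 direction in all 24 mice, the 5 highest means of each tissue, the 10 genes with the highest lower tissue mean, genes of the lists, and the 5 smallest p for week and for diet dependence. Members and lists were chosen with earlier results of these data known. Results of some list genes are not reported here.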

Additional observations from a re-analysis of the deposited data

Results flagged for a closer look

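Single mice stood apart in 4 of 78 groups of 4 libraries, by a Dixon-type gap within the 4 mice of a week and tissue. Those 4 were all groups of marker sums. Chance flags about 1 in 20 groups. Hepatocyte markers in islets of week 4 were at 37.08 FPKM in CD106, with 31.65 as the nearest other value. Beta cell markers in liver were at 3774.87 in CD306 (nearest 489.58) and at 2621.17 in CD407 (nearest 292.32), and acinar markers in the liver of CD407 at 101.54 (nearest 27.67). Insulin and digestive enzyme transcripts were thus raised together in that liver, and the cause was not tested.

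The tissue difference of 4986 genes depended on the week. The moderated F over 24 mice was 74.3 for Lmtk3 (limma, adjusted p = 1.1e-09), 53.9 for Gm21320, 52.7 for Dgcr6 and 52.6 for Olfm4 (adjusted p = 1.3e-08 each) and 50.1 for Ubp1 (adjusted p = 1.7e-08).

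For 129 of 12566 genes tested (1.03%) the tissue difference, islets minus liver, differed between HFD and CD mice, 24 mice a diet. Counts of called genes in a list are here to be read against that share. The values that follow are HFD minus CD. The smallest p belonged to Adgrv1 (-2.71), Reln (-1.13) and Cyp26a1 (2.22), and to Gucy2c (0.98) and Me3 (0.93), whose change is under 1 and which are not among the 129. Among hormones the change was 2.23 ± 0.85 for Ins2 (limma, adjusted p = 0.04), 1.97 ± 0.72 for Ins1 (0.032) and 1.34 ± 0.46 for Iapp (0.024), and -1.95 ± 0.26 for Npy (1.6e-07), -1.24 ± 0.31 for Sst (0.0018), -1.12 ± 0.25 for Pyy (0.00057) and -1.06 for Ghrl. Genes of delta cells moved the same way as Sst, with Rbp4 at -1.34 and Hhex at -1.05. Of 20 acinar markers tested between the tissues 2 were called, Amy2a5 at -1.18 and Gp2 at -1.19, and Amy2b, below that filter, was at -1.37. Ctrb1, another abundant one, was not called at -0.11 (limma, adjusted p = 0.86).

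Of 7 stellate and stromal markers 5 were called, beside 1.03% of all genes tested. Reln was among them, with Col1a1 at -1.71, Col1a2 at -1.45, Col3a1 at -1.38 and Dcn at -1.34. Tgm2, a crosslinking enzyme, was at -1.25. Col1a1 in liver was at 0.31 to 12.3 (1.22) in CD and 0.77 to 35 (5.97) in HFD mice. Of 15 signals between the tissues 3 were called, Gdf15 at -1.88, Hamp at 1.85 and Igfbp2 at 1.12, and Fgf21, below the filter, was at -1.64. Of 10 immediate early genes 2 were called, Egr1 at -1.59 and Btg2 at -1.10, and Atf3, below the filter, was at -1.01. Single genes of other lists were Apoa4 at -1.53 and Gpx3 at -1.42. In the other direction lay the P450 genes Cyp2c29 (1.42) and Cyp3a11 (1.28) and the globins Hba-a1 (1.02), Hba-a2 (1.03) and Hbb-bs (1.03). So did the liver genes Mup7 (2.85), Serpina1e (2.10), Mup14 (1.96) and Mup3 (1.04). Their relatives Mup19 (0.78), Serpina1c (0.64), Gm21320 (0.61) and Mup20 (0.31) changed by less than 1 and were not called. Which tissue moved was not tested gene by gene.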

How the results depend on the processing

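The counts of called genes moved with the threshold and the scaling, and the balance of directions moved with scaling. By any 2 of the 4 scalings, 0 genes were called in opposite directions. With adjusted p alone 11149 genes were called, 7780 higher in islets and 3369 higher in liver. With a minimum log2 difference of 2 there were 2877, 1791 and 1086. Quantile normalization left 3046 genes higher in islets, a pseudocount of 0.1 gave 5237 against 1963, and no filter on low values 4912 against 1921. In the fit without the replicate block, that is not paired by mouse, 4612 and 1822 genes were called, as in the paired fit.

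Leaving out each mouse in turn gave 6407 to 6537 called genes, 4581 to 4727 of them higher in islets and 1810 to 1832 higher in liver, and leaving out each week 6369 (week 20) to 6638 (week 12). In single weeks the counts without a mouse ran from 6542 to 6882, 6481 to 6568, 5906 to 6281, 6463 to 6582, 6780 to 6891 and 6167 to 6427, in order of time. Week dependence ran from 4189 to 5474 genes without single mice and was 3921 with a pseudocount of 0.1, 5976 without a filter, 5773 after median ratio scaling, 6279 without the 20 most abundant genes and 5385 without the replicate block. Diet dependence rose from 129 to 335 genes with a pseudocount of 0.1 and was 121 to 140 otherwise. With the library mean subtracted, r was 0.72 for Arntl and 0.80 for Per1. The alternative without mitochondrial genes was not run, since the table holds 0 of them.

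Quantile normalization turned the sign of shared abundant genes: Col19a1 went from -1.24 to 0.36, Ftl1, an iron storage chain, from -1.60 to 0.22, and the genes not called Eef1a1 from -0.42 to 1.33, Rplp1 from -0.43 to 1.23 and Tpt1 from -0.31 to 1.46.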

Other observations

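Genes confined to 1 tissue were counted after the values had been seen. At 10 FPKM or more in all 24 libraries of a tissue and under 0.1 in all 24 of the other stood 15 islet and 56 liver genes. At 1 FPKM or more in place of 10 the order turned, with 325 islet genes and fewer liver genes. The cut of 0.1 FPKM bears unequally on the tissues, since traces reached 0.574% of the islet level for Ins2 in liver but 0.0367% of the liver level for Alb in islets. The highest value was 30.1 FPKM among the 15 islet genes and 593 FPKM among the liver genes. The counts therefore do not compare the tissues, and the part of the traces in them was not tested. The islet genes included Th, the first enzyme of dopamine synthesis, at 10.4 to 20.3 (14.3), Casr, the calcium-sensing receptor, at 14.6 to 25.2 (19.7), and Grin1, a subunit of the NMDA receptor for glutamate, at 14.9 to 29.7. Liver had Cyp1a2, a P450 that metabolizes caffeine, at 229 to 593 (342), and Baat, which joins bile acids to amino acids, at 98.2 to 191 (131).

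Genes of the small intestine stood out in 3 islet libraries, of mice CD208, CD407 and CD505, and were chosen after the values were seen. Apoa4 was at 7.94, 6.96 and 16.2 FPKM there and at most 0.52 in the other 21 islet libraries. Fabp2, the fatty acid carrier of enterocytes, was at 6.97, 2.49 and 2.93 against at most 0.28, Alpi, their alkaline phosphatase, at 3.90, 2.88 and 5.53 against at most 0.21, and Rbp2, their retinol carrier, at 9.04, 2.25 and 8.71 against at most 1.5. Alb was at 0.28, 6.89 and 0.24 in the same libraries. The cause was not tested. Apom, an apolipoprotein known from liver, was at 0 to 0.72 (0) in liver and 0 to 0.17 (0.055) in islets, and whether its reads were assigned elsewhere is unknown from the table.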
